A study of Mus musculus with 20 samples.

Results

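Lipopolysaccharide, the outer membrane glycolipid of Gram-negative bacteria, is sensed by animal cells through a relay of binding proteins. Lbp, the lipopolysaccharide binding protein, is a secreted lipid-transfer protein of the acute phase that extracts lipopolysaccharide from membranes and delivers it to Cd14. Cd14 is anchored to the surface of monocytes and macrophages, or circulates in soluble form, and passes the lipid on to Ly96. Ly96, also named MD-2, is the small protein that sits on the ectodomain of Toll-like receptor 4 (Tlr4) and holds the lipid in its pocket. The assembled receptor then signals through the adaptor Myd88, and through a separate adaptor pair, to NF-κB and interferon genes. In the airway, these proteins are known for setting how epithelium and resident leukocytes react to inhaled endotoxin.

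The genes Lbp, Cd14 and Ly96 were followed here because they are the soluble carrier, the co-receptor and the receptor subunit of this relay. Lbp was also chosen on measured values, since the study named it as a gene that differed between uninjured genotypes and did not differ with injury in either. Every Lbp difference between the 4 groups follows from those contrasts, so all are given as a description with no p. All probes carrying these 3 gene names were taken, which were 3 of 41174 probes on the array, 1 for each gene (3 of 27666 gene names). All 3 probes were well above background on all 20 arrays. With a single probe per gene, a change in signal cannot be told apart from a change in the part of the transcript that the probe reads.

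The data were 20 whole tracheas measured on 1-colour oligonucleotide arrays, 5 in each of 4 groups. Wild-type mice (C57/Bl6) and Myd88 KO mice, which lack the adaptor Myd88 in all cells, were either controls without injury or had been given 2% polidocanol, a detergent that strips the tracheal epithelium, 3 days before collection. The labels give an age of 4 months for every mouse. The study's methods add that mice of both sexes were used, that the deletion had been back-crossed to C57/Bl6JOlaHsd mice, and that the Myd88KO line was bred by KO × KO crossings apart from the wild-type colony, so that the deletion and other differences between the colonies cannot be told apart. Each slide held 1 array of every group. Levels are log2 intensities relative to the 75th percentile of the same array, so that 0 is the signal of a probe at that percentile, and differences are given on this log2 scale.

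The share of spots well above background was 57.5% to 67.8% over the arrays, the correlation between arrays of a group was 0.955 to 0.990, and precision is limited by having 5 arrays in a group. Of all probes, 26063 were well above background on at least 10 arrays and were tested. A probe was called at an adjusted p under 0.01 over all tested probes. Myd88 itself was lower on injured Myd88KO than on injured wild-type arrays by a log2 difference of −0.77 (adjusted p = 0.00824), and its uninjured difference was −0.21 (adjusted p = 1.00). The injured call was lost with the slide as a replicate block (0.0180), with array weights (0.0421) and without injured Myd88KO replicate 5 (0.0304). Where its probe lies relative to the deleted part was not analysed here. Injured Myd88KO replicate 5 stood apart from its group in airway secretory markers. Its summed level of airway secretory markers was 1628 times the 75th percentile signal, above the other 4 arrays of its group (720 to 1233), inside the range of the uninjured wild-type arrays (1581 to 2853) and below that of the uninjured Myd88KO arrays (1705 to 2642). Uninjured arrays scanned on the same day all read higher, at 2404 and 2642 in Myd88KO and 2756 and 2853 in wild-type tracheas. The summed neutrophil and macrophage markers of replicate 5, 0.464 and 11.7 on the same scale (macrophage markers without Lyz2), were the lowest of its group. They lay inside the ranges of the uninjured Myd88KO arrays (0.428 to 2.43 and 11.6 to 20.1). So did those of injured Myd88KO replicates 1 (2.35 and 18.5) and 3 (1.04 and 14.5).

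Lbp was the gene of the 3 that separated the genotypes. The probe, for NM_008489, lies on chromosome 2 from 158069296 to 158072838. This and the positions that follow are as the deposited files give them, whose build is not given in the sources used here. On uninjured wild-type arrays its log2 level was 2.33, 2.06, 1.88, 2.25 and 2.23 in replicates 1 to 5. On uninjured Myd88KO arrays it was 3.17, 3.78, 3.96, 3.67 and 3.01. All 5 Myd88KO arrays lay above all 5 wild-type arrays, with a gap of 0.67 between the lowest Myd88KO and the highest wild-type value. The group means were 2.15 ± 0.18 (SD, n = 5) and 3.52 ± 0.41 (SD, n = 5), and the log2 difference was 1.36 (SE 0.23), a 2.57-fold higher level. Over all tested probes, 0.188% were called higher and 1.71% had groups that did not overlap in this direction.

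After injury, Lbp was again higher in Myd88KO tracheas. The log2 levels were 1.53, 1.97, 1.64, 2.27 and 1.57 on injured wild-type arrays. On injured Myd88KO arrays they were 2.27, 3.21, 3.59, 3.29 and 3.06. The groups did not overlap, but only just. The lowest Myd88KO array, replicate 1, exceeded the highest wild-type array, replicate 4, by 0.0038, while the other 4 Myd88KO arrays were all above 3. The means were 1.80 ± 0.31 (SD, n = 5) in wild-type and 3.08 ± 0.50 (SD, n = 5) in Myd88KO tracheas. The log2 difference was 1.29 (SE 0.23), or 2.44-fold. Arithmetically it is the uninjured difference plus the difference of the injury responses. In this comparison 0.150% of all tested probes were called higher and 0.694% were higher without overlap.

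In 32 alternative settings the Lbp difference after injury was 1.16 to 1.54. These settings reuse the values on which Lbp was chosen, so they are no separate support for it. The genotype difference was then set out by slide, as a description of the same values. On the 5 slides it ran from 0.77 to 2.08 (median 1.42) without injury and from 0.74 to 1.95 (median 1.25) after injury, with the Myd88KO array higher on 5 of 5 in both states. The slides were scanned on 2 days. In uninjured tracheas the difference was 1.74 on the first day (3 arrays per group) and 0.80 on the second (2 arrays per group). After injury it was 1.41 and 1.11. The 2 lowest of the uninjured Myd88KO values, in replicates 1 and 5, were both scanned on the second day.

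The mean of Lbp was slightly lower after injury in both genotypes. The log2 difference of injured from uninjured tracheas was −0.36 (SE 0.23) in wild-type and −0.43 (SE 0.23) in Myd88KO mice, and the groups overlapped in both. The injured array was the lower on 4 of 5 slides in each genotype. The injury responses differed by −0.07 (SE 0.32), and the sign of this difference turned in 6 of 30 alternatives (−0.20 to 0.15). In order of mean level the groups were uninjured Myd88KO, injured Myd88KO, uninjured wild-type and injured wild-type. Neighbours in this order overlapped: Myd88KO injury replicate 1 lay 0.065 below the highest uninjured wild-type array.

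**Figure D1:**
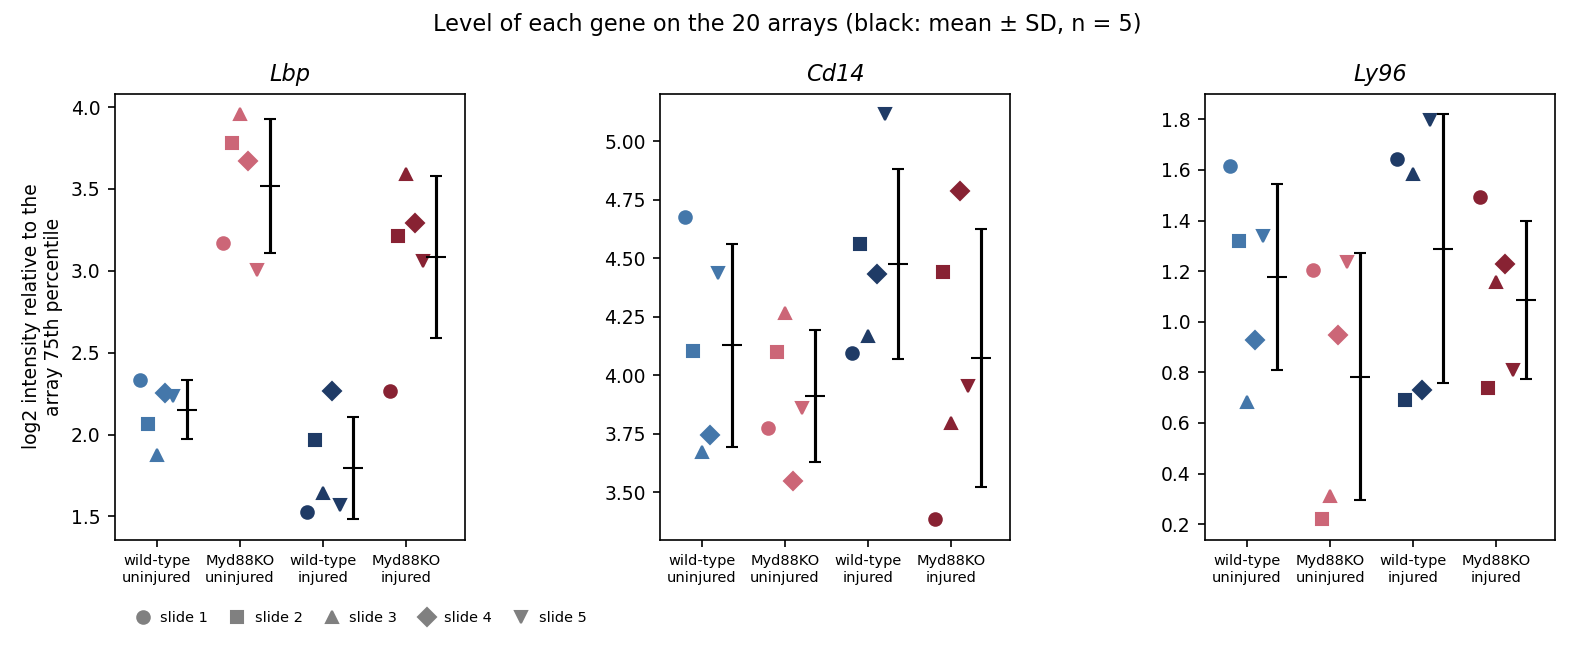
Log2 intensity of Lbp, Cd14 and Ly96 relative to the 75th percentile of the array (vertical axes, each with its own range) on the 20 arrays, by group. Each symbol is 1 array, its shape gives the slide, and the black bar is the mean ± SD of 5 arrays. For Lbp the Myd88KO means are 3.52 and 3.08 against 2.15 and 1.80 in wild-type, while the 4 groups overlap for Cd14 and for Ly96.

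Cd14 showed no difference that passed the test in any comparison. Its probe, for NM_009841, is placed on chromosome 18 from 37101516 to 37101575. Its log2 level was 4.68, 4.10, 3.67, 3.75 and 4.44 on uninjured wild-type arrays. It was 3.78, 4.10, 4.27, 3.55 and 3.86 on uninjured Myd88KO arrays. The Myd88KO values all fell within or just below the wild-type range, and the difference of the means (4.13 ± 0.43 and 3.91 ± 0.28, SD, n = 5 each) was −0.22 (95% confidence interval −0.76 to 0.33, adjusted p = 1.00).

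After injury, Cd14 reached its highest level of all arrays, 5.12, in wild-type replicate 5. The injured wild-type arrays read 4.09, 4.56, 4.17, 4.43 and 5.12. The injured Myd88KO arrays read 3.38, 4.44, 3.80, 4.79 and 3.96, so that the group held both the lowest and the second highest Cd14 value of the series. The means were 4.47 ± 0.41 (SD, n = 5) and 4.07 ± 0.55 (SD, n = 5). Injury was associated with a log2 difference of 0.35 in wild-type (95% confidence interval −0.20 to 0.89, adjusted p = 0.429) and of 0.16 in Myd88KO tracheas (−0.38 to 0.71, adjusted p = 0.781). The difference between injured genotypes was −0.40 (−0.95 to 0.15, adjusted p = 0.557). The injury responses differed by −0.19 (−0.96 to 0.59, adjusted p = 0.884). Without injured Myd88KO replicate 4 the Myd88KO response was −0.016 (adjusted p = 0.986).

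Cd14 was set beside leukocyte markers on the same arrays. The injured Myd88KO arrays with the highest Cd14, replicates 2 and 4 (4.44 and 4.79), had the highest summed levels of neutrophil markers in the group, 19.1 and 43.0 times the 75th percentile signal, against 2.35, 1.04 and 0.464 in replicates 1, 3 and 5. The same arrays led in macrophage markers other than Lyz2, at 44.9 and 41.6 against 18.5, 14.5 and 11.7. Among those other 3 arrays the order was the reverse, with the lowest Cd14 (3.38) in replicate 1 and the highest (3.96) in replicate 5. Injured wild-type replicate 5, highest of all in Cd14, was also highest in neutrophil markers, at 259. Injured wild-type replicate 1 had the highest macrophage sum of all arrays, 81.4, and the lowest Cd14 of its group, 4.09. Uninjured Myd88KO replicate 3 had the highest Cd14 of its group, 4.27, and the lowest sums of both marker lists, 0.428 and 11.6. High Cd14 and high leukocyte markers were thus found together on some arrays and apart on others. The part of these cells in the Cd14 level was not tested, and in whole tissue more cells of a type and more RNA per cell cannot be told apart.

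On the same scale, macrophage markers other than Lyz2 summed to 28.3 to 81.4 on injured wild-type arrays (median 47.8), above all uninjured arrays of both genotypes (11.6 to 20.1). Over all 10 macrophage markers the sum overlapped between the 4 groups, at 281 to 561, because Lyz2, which airway epithelium also makes, supplied 83.1% to 97.6% of it. Lyz2 was separated after its values were seen. Of the 10 macrophage markers 7 were called higher after wild-type injury, against 3.24% of all tested probes. After Myd88KO injury 0 were called, against 0.134% of all tested probes, and by limma 5 were higher at an unadjusted p under 0.05, against 7.32% of all tested probes, with a median log2 difference of 0.83. Neutrophil markers summed to 14.8 to 259 on injured wild-type, 0.464 to 43.0 on injured Myd88KO, 2.58 to 33.3 on uninjured wild-type and 0.428 to 2.43 on uninjured Myd88KO arrays. Of 6 tested neutrophil markers 1 was called higher after wild-type injury and 0 after Myd88KO injury. At an unadjusted p under 0.05 by limma, 5 were higher in wild-type and 3 in Myd88KO tracheas, against 14.5% and 7.32% of all tested probes, and the median differences were 3.34 and 2.30.

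**Figure D2:**
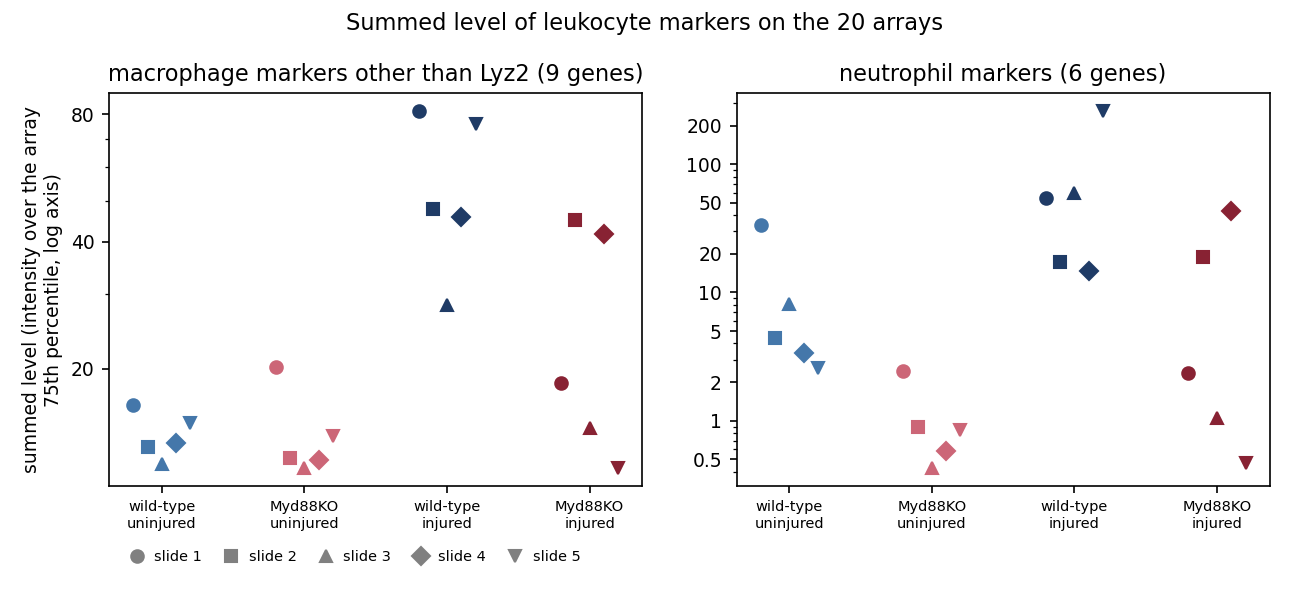
Summed level of 9 macrophage markers (without Lyz2) and of 6 neutrophil markers on each array, as intensity over the array's 75th percentile on log axes. Symbols give the slide. Injured wild-type arrays hold macrophage sums of 28.3 to 81.4, and among injured Myd88KO arrays replicates 2 and 4 (44.9 and 41.6) lie apart from the other 3 (11.7 to 18.5).

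Ly96, the lipid-holding subunit of the receptor, also passed the test in 0 of its 5 comparisons. Its probe, for NM_016923, is placed on chromosome 1 from 16895437 to 16898709. The log2 level was 1.61, 1.32, 0.68, 0.93 and 1.34 on uninjured wild-type arrays. It was 1.20, 0.22, 0.31, 0.95 and 1.24 on uninjured Myd88KO arrays. Replicates 2 and 3 were the lowest Ly96 values of all 20 arrays, and the other 3 Myd88KO arrays fell within the wild-type range. The means were 1.18 ± 0.37 and 0.78 ± 0.49 (SD, n = 5 each), a log2 difference of −0.39 (95% confidence interval −0.95 to 0.16, adjusted p = 1.00).

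After injury, Ly96 read 1.64, 0.69, 1.58, 0.73 and 1.80 on wild-type arrays, in which replicates 2 and 4 were low and the other 3 high. It read 1.49, 0.74, 1.16, 1.23 and 0.81 on Myd88KO arrays. The means were 1.29 ± 0.53 and 1.09 ± 0.31 (SD, n = 5 each), and the difference between injured genotypes was −0.20 (−0.76 to 0.35, adjusted p = 0.800). Injury was associated with 0.11 in wild-type (−0.44 to 0.67, adjusted p = 0.830) and with 0.30 in Myd88KO tracheas (−0.25 to 0.86, adjusted p = 0.572). The injury responses differed by 0.19 (−0.59 to 0.97, adjusted p = 0.882). The wild-type injury difference turned to −0.011 without uninjured wild-type replicate 3 and to −0.014 without injured wild-type replicate 5. The order of the 4 means was injured wild-type, uninjured wild-type, injured Myd88KO and uninjured Myd88KO for both Ly96 and Cd14, with all neighbours overlapping.

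Within scan days the genotype differences of Cd14 and Ly96 varied in size and, for uninjured Cd14 and injured Ly96, in sign. For Cd14 the uninjured Myd88KO to wild-type difference was 0.13 on the first day and −0.74 on the second, and after injury it was −0.046 and −0.94. For Ly96 it was −0.49 and −0.26 without injury and 0.039 and −0.57 after it. Without injured Myd88KO replicate 5, the injury response in Myd88KO tracheas was 0.19 for Cd14, 0.37 for Ly96 and −0.43 for Lbp, and the difference between injured genotypes was −0.37, −0.14 and 1.30. Across the 5 contrasts, Cd14 and Ly96 were under the threshold in 0 of 316 alternative values (lowest adjusted p = 0.280). The difference between the injury responses was called for neither gene. No probe at all was called for that difference (0% of tested probes, limma), although 2703 had an unadjusted p under 0.05 and the smallest adjusted p was 0.179.

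**Figure D3:**
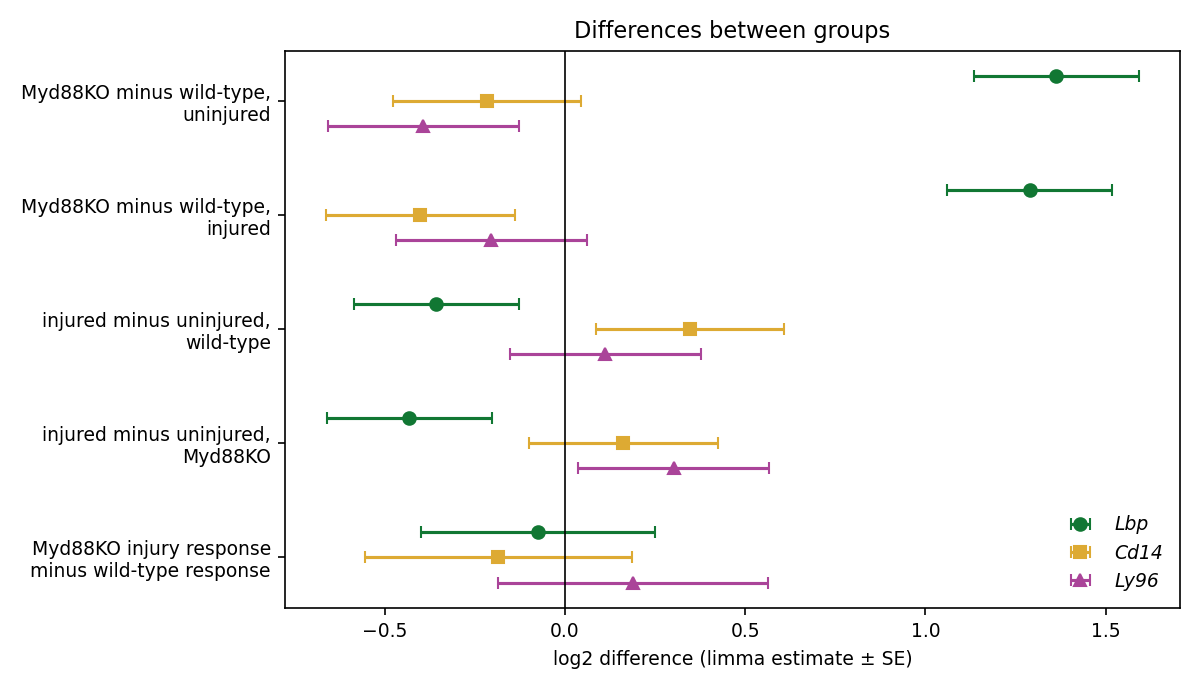
Log2 differences between groups (horizontal axis) for Lbp, Cd14 and Ly96 in the 5 contrasts, as the limma estimate ± SE. The Lbp points for Myd88KO minus wild-type lie at 1.36 and 1.29, and all points of Cd14 and Ly96 lie between −0.40 and 0.35.

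The likeness of the 3 genes over the arrays was then compared. When each profile was set to mean 0 and SD 1 over the 20 arrays, the root mean square difference was 1.52 SD units between Lbp and Cd14, 1.73 between Lbp and Ly96 and 1.25 between Cd14 and Ly96. Of all other tested probes, 98.8% were closer to Lbp than Ly96 was and 77.7% were closer to Lbp than Cd14 was. For Cd14, 31.9% were closer than Ly96, so that Cd14 and Ly96 were the most alike pair of the 3. The genes most like Lbp were Clec16a (0.350), Nnt (0.377), Myh6 (0.404), Epb41l1 (0.423) and Cuedc1 (0.438). None of these is a lipopolysaccharide-binding gene, and Epb41l1 lies within 2 Mb of Lbp. Nnt encodes the mitochondrial nicotinamide nucleotide transhydrogenase, known to differ between C57BL/6 substrains, and Myh6 a cardiac myosin heavy chain. Their Myd88KO to wild-type log2 differences ran from 0.77 for Epb41l1 to 2.03 for Cuedc1 without injury, and from 0.68 to 2.26 for the same genes after it.

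Cd14 was less close to any gene. Its nearest were Bcl3 (0.605), an NF-κB cofactor, Soat1 (0.618), which esterifies cholesterol in macrophages, Gch1 (0.638), Pgm2l1 (0.639) and Pdpn (0.651), the mucin-type protein podoplanin. Ly96 was closest to Casp4 (0.362), the cytosolic receptor of lipopolysaccharide, then to Cdh11 (0.365), a fibroblast cadherin, AK163132 (0.420), Wtap (0.423) and Mtf2 (0.441). These profiles were measured on the same arrays and share their scaling, and the closeness is a description.

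Around Lbp on chromosome 2, 53 other probes of 37 genes were tested within 2 Mb, and their median Myd88KO to wild-type difference was 0.16 without injury and −0.20 after it. AK047604, at −1597 kb from Lbp, was called higher in both states (2.47 and 2.51), and 1 of 2 Rprd1b probes was called lower (−2.84 and −3.13) while the other was not (−0.12 and −0.25). Of these 53 probes, 9 had uninjured genotype groups that did not overlap, 8 of them higher in Myd88KO, against 2.51% of all tested probes in either direction. Besides AK047604 and Rprd1b they were Cnbd2 (1.11), Tgif2 (0.69), Myl9 (0.59), 1 of 2 probes of Src (0.68, the other 0.47), 1 of 3 probes of Ndrg3 (0.22, the others −0.20 and 0.22) and 2 of 3 probes of Epb41l1 (0.77 and 0.48), none of which was called. The third Epb41l1 probe read −0.09 without injury and −0.20 after it, and its groups overlapped. After injury 3 of the 53 probes had genotype groups that did not overlap, against 1.96% of all tested probes in either direction. Cnbd2 and the other 2 Epb41l1 probes then overlapped. The nearest tested genes on either side, D630003M21Rik (0.41 and −0.30) and Snhg17 (−0.05 and 0.29), were not called.

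Lbp is made mainly by hepatocytes in the body, and adipocytes also produce it. The defining hepatocyte markers Alb, Apoa1 and Ttr were well above background on 0 of 20 arrays and Apob on 1, Serpina1a had no probe here, and Cyp2e1, also an airway and fat gene, did not pass the test in any comparison. Adipocyte markers were abundant. Their sum over 7 tested genes was 306 to 579 on uninjured wild-type and 460 to 831 on uninjured Myd88KO arrays, and 176 to 555 and 243 to 697 after injury. Between the genotypes 0 of 7 were called in either state, against 0.384% of all tested probes without injury and 0.380% after it. The median uninjured Myd88KO to wild-type difference of these 7 genes was 0.49. Of the 7, 5 were positive, against 56.7% of all tested probes, and by limma 1 was higher at an unadjusted p under 0.05, against 3.82%. On uninjured Myd88KO arrays the highest adipocyte sums, 831 and 676 in replicates 1 and 5, belonged to the lowest Lbp values, and on injured Myd88KO arrays the highest, 697 in replicate 1, also did. On uninjured wild-type arrays the lowest sum, 306 in replicate 3, belonged to the lowest Lbp value, and on injured wild-type arrays replicate 4 was highest in both, at 555 and 2.27. The order of the 2 measures thus differed between groups. Replicates 1 and 5 were those scanned on the second day. They also held the 2 highest adipocyte sums of uninjured wild-type (557 and 579) and injured Myd88KO arrays (697 and 453), but not of injured wild-type arrays. The part of the scan day in these orders was not tested, nor was that of hepatocytes and adipocytes in the Lbp difference.

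The relatives of the 3 genes were then taken by role. The first list holds 12 other proteins that bind or handle lipopolysaccharide, of which 10 were tested. After wild-type injury, 6 were called higher and 1 lower, against 3.24% of all tested probes called higher and 2.03% called lower. With the slide as a replicate block 3 were called higher and 1 lower, since Itgam, Cd180 and Scarb1, a lipoprotein receptor (0.76, adjusted p = 0.0112 with the block), were no longer called. When single arrays were left out, the count called higher ranged from 1 to 7. It was 1 without injured wild-type replicate 2, 2 without injured wild-type replicate 1 or 5 or uninjured wild-type replicate 2, and 3 without uninjured wild-type replicate 3 or 4. After Myd88KO injury 0 were called in either direction, and the median log2 difference of the list was 0.79. By limma, 5 were then higher and 2 lower at an unadjusted p under 0.05, against 7.32% and 12.2% of all tested probes. After wild-type injury the median was 1.71, against 5.9e-05 over all tested probes. Msr1, the macrophage scavenger receptor, rose by 3.93 (SE 0.70, adjusted p = 0.00166), with 1 of its 2 other probes not called, and was called in all 20 fits that left out 1 array. Itgb2, the shared chain of the leukocyte integrins, rose by 2.66 (SE 0.53). Itgam, its partner in complement receptor 3, rose by 2.66 on 1 probe, while its brighter probe gave 2.57 (adjusted p = 0.0131), and neither passed with the slide as a replicate block (lowest adjusted p = 0.0109) or in 7 of the 20 fits that left out 1 array (up to 0.0182).

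The receptor pair Cd180 and Ly86, homologues of Tlr4 and Ly96 that modulate lipopolysaccharide responses of B cells and myeloid cells, were both called after wild-type injury. Ly86 rose by 1.43 (SE 0.34, adjusted p = 0.00907) and Cd180 by 2.03 (SE 0.47, adjusted p = 0.00761). Cd180 was well above background on 1 of 5 uninjured wild-type arrays and had an adjusted p of 0.0123 with the slide as a replicate block. It met the filter for testing mainly through injured arrays, so its entry into the test and its rise are not independent. With uninjured arrays raised to the signal of the dimmest probe well above background on each, the Cd180 difference was 1.72. Of the 20 fits that left out 1 array, 14 did not call Ly86 (adjusted p up to 0.0290) and 9 did not call Cd180 (up to 0.0267), and both were lost without injured wild-type replicate 1, 2 or 5. The fall was that of the scavenger receptor Cd36, by −1.23 on 1 probe, with −1.27 on the brighter one (adjusted p = 0.0174), and 7 of the 20 fits did not call it on either probe (adjusted p up to 0.0206). Bpi, the structural relative of Lbp from neutrophil granules, was well above background on 0 of 20 arrays. Pltp, the phospholipid transfer protein of the same family, differed by 0.13 in wild-type (adjusted p = 0.718) and by −0.61 in Myd88KO tracheas (adjusted p = 0.0947).

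Of 16 genes of the Tlr4 receptor, its chaperones, adaptors and kinases, 15 were tested and 0 were called after injury in either genotype by limma. Of all tested probes, 5.26% were called in wild-type and 0.376% in Myd88KO tracheas, so 0 of 15 is near these shares. At an unadjusted p under 0.05, 3 of the 15 were higher and 1 lower in wild-type and 2 lower in Myd88KO tracheas. The shares of all tested probes were 14.5% higher and 11.9% lower in wild-type and 12.2% lower in Myd88KO tracheas. The median differences were 0.04 and 0.02. Tlr4, the receptor that Ly96 serves, was 0.18, −0.28, −0.58, −0.49 and −0.14 on uninjured wild-type arrays and 0.08, −1.31, −0.66, −1.46 and −0.10 after injury. Like Ly96, it was lowest among injured wild-type arrays in replicates 2 and 4. Its injury difference was −0.43 (adjusted p = 0.327) in wild-type and 0.03 (adjusted p = 0.970) in Myd88KO tracheas, and its genotype difference was −0.30 without injury (adjusted p = 1.00) and 0.15 after it (adjusted p = 0.863). Myd88 rose by 0.58 after wild-type injury without passing the threshold (adjusted p = 0.0111). It passed with array weights (0.00292) and without injured Myd88KO replicate 5 (0.00869), and Irak4 passed with array weights (0.00936). Without injured Myd88KO replicate 1 or injured wild-type replicate 3, 1 gene of the list was also called after wild-type injury.

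In the second receptor system for the same lipid, that of the cytosol, 1 of 5 genes was called, against 3.24% of all tested probes called higher after wild-type injury. Gsdmd, the pore-forming protein gasdermin D, rose by 1.18 (SE 0.20, adjusted p = 0.00112). Casp4 differed by 0.05 (adjusted p = 0.948). The median of the list was 0.07 in wild-type and 0.16 in Myd88KO tracheas.

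Of 17 genes that lipopolysaccharide is known to induce in myeloid cells, 12 were tested and 3 were called higher after wild-type injury, against 3.24% of all tested probes. Ccl3, a chemokine for monocytes, rose by 5.98 (SE 0.90, adjusted p = 0.000543), from a group in which 1 of 5 arrays was well above background. On injured wild-type arrays it was well above background on 5 of 5. Ccl3 thus met the filter for testing mainly through injured arrays, so its entry into the test and its rise are not independent. With uninjured arrays raised to the signal of the dimmest probe well above background on each, the Ccl3 difference was 4.62. Acod1, which makes itaconate in activated macrophages, rose by 5.50 (SE 1.14), from a group in which 2 of 5 arrays were well above background (4.91 when raised likewise), and Ccl2, the main monocyte chemokine, by 3.32 (SE 0.49). Acod1 also met the filter mainly through injured arrays, so the limit given for Ccl3 holds for it. Without injured wild-type replicate 1 or 5, or uninjured wild-type replicate 2, 4 or 5, Acod1 was not called (adjusted p up to 0.0142) and the count was 2, while Ccl3 and Ccl2 were called in all 20 such fits. The median of the list was 1.04 in wild-type and 0.81 in Myd88KO tracheas. Il6 and Cxcl2 were not tested, with 4 of 5 injured wild-type and 2 of 5 injured Myd88KO arrays well above background for each.

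The list with the highest median was that of acute-phase genes, the class to which Lbp belongs, with 8 of 10 tested and a median of 2.31 after wild-type injury. Of these, 5 were called higher, against 3.24% of all tested probes. Saa3, a serum amyloid A made by macrophages and epithelium, rose by 7.58 (adjusted p = 0.000407). It was well above background on 3 of 5 uninjured wild-type arrays, and with uninjured arrays raised as for Ccl3 the Saa3 difference was 7.20. Like Ccl3, Saa3 met the filter for testing mainly through injured arrays, so its entry into the test and its rise are not independent. Saa1 rose by 3.67 (SE 0.59), Lcn2, which withholds bacterial siderophores, by 3.62 (SE 0.67) and Hpx, the haem carrier hemopexin, by 2.59 (SE 0.37). The fifth was Saa2, at 2.03, which was not called with the slide as a replicate block (adjusted p = 0.0124) or in 16 of the 20 fits that left out 1 array (up to 0.0272). The other 4 were called in all 20. The Lbp difference in the same comparison was −0.36. The median was 0.19 in Myd88KO tracheas.

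Over the 5 lists together, 15 of 50 tested genes were called higher and 1 lower after wild-type injury, against 3.24% and 2.03% of all tested probes, and 0 in either direction after Myd88KO injury. With the slide as a replicate block the wild-type count was 12. In the Myd88KO comparison 0.134% of all tested probes were called higher and 0.242% lower, and the median of all tested probes was −0.07. These shares are 98 probes, which became 1075 without injured Myd88KO replicate 5 and 1904 with array weights. By limma, 13 of the 50 were higher and 8 lower at an unadjusted p under 0.05 on their brightest probe, against 7.32% and 12.2% of all tested probes. Saa3 and Ccl3 were well above background on 0 of 5 uninjured Myd88KO arrays and did not pass after Myd88KO injury (adjusted p = 0.0458 and 0.0670). The bounds of their differences of means were at least 6.10-fold and at least 4.48-fold. Neither gene was well above background on injured Myd88KO replicate 5. Without that array the measured log2 differences were 5.09 and 3.87, against 4.12 and 3.07 with it. For a bound, the signal of each uninjured array was raised, where lower, to that of the dimmest probe well above background on the array. Without injured Myd88KO replicate 5 there were 4 list genes called (Itgam, Gsdmd, Ccl3 and Saa3), and the wild-type count of 16 ranged from 9 to 19 when single arrays were left out. It was 9 without uninjured wild-type replicate 2 and 10 without uninjured wild-type replicate 4 or injured wild-type replicate 1 or 5. The difference of the injury responses was called in 0 of the 50 by limma. At an unadjusted p under 0.05 it was negative in 14 and positive in 1, against 6.96% and 3.41% of all tested probes.

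**Figure D4:**
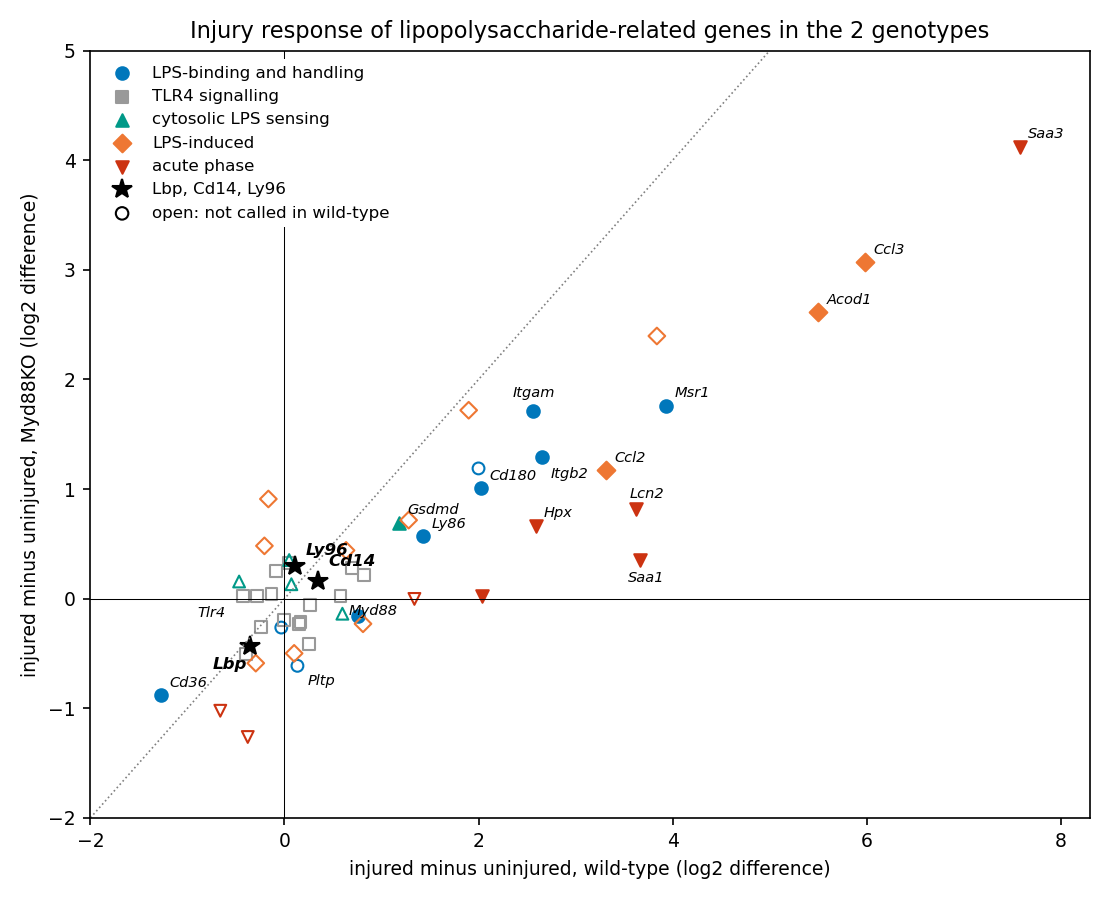
Injury response of the 50 tested list genes and of Lbp, Cd14 and Ly96 (stars) in wild-type (horizontal) and Myd88KO tracheas (vertical), as log2 differences of injured from uninjured. Filled symbols were called in wild-type, and the dotted line marks equal responses. The 3 stars lie between −0.36 and 0.35 in wild-type, while Saa3 reaches 7.58.

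Between the genotypes, 0 of the 50 list genes were called in uninjured tracheas by limma, where 0.188% of all tested probes were called higher and 0.196% lower. At an unadjusted p under 0.05, 1 list gene was higher and 3 lower, against 3.82% and 1.77% of all tested probes. After injury 3 were called lower, namely Lcn2 (−3.95, adjusted p = 0.00381), Saa1 (−3.19, adjusted p = 0.00823) and Myd88 (−0.77), against 0.230% of all tested probes called lower. By limma, 25 of the 50 were lower and 0 higher at an unadjusted p under 0.05, against 8.09% and 4.43% of all tested probes. At the same p, 7 of 10 macrophage markers and 4 of 6 neutrophil markers were lower and 0 higher, with medians of −1.05 and −3.07. Of 4 ciliated markers 1 was higher and 0 lower, with a median of 1.03. Markers of other cells moved too: 2 of 3 fibroblast, 2 of 5 cartilage and 1 of 3 endothelial markers were lower, with medians of −0.53, −0.54 and −0.36. Of 6 airway secretory markers 2 were higher, with a median of 0.20. Without injury, 3 of 6 neutrophil markers were already lower at that p and 0 higher, with a median of −1.79. Of the macrophage markers 0 of 10 were lower or higher without injury. For the difference of the injury responses, 0 of 6 neutrophil and 4 of 10 macrophage markers were lower, against 6.96% of all tested probes. None of these markers was called, and the part of these cells in the list counts was not tested. With the slide as a replicate block none of Lcn2, Saa1 and Myd88 passed (adjusted p = 0.0153, 0.0137 and 0.0180). Nor did they without injured Myd88KO replicate 5 (0.0149, 0.0294 and 0.0304), and the count of 3 ranged from 0 to 4 when single arrays were left out. Lbp, at 1.29 the other way, was higher in injured Myd88KO tracheas in which these acute-phase genes read lower. Without injury 7 of the 8 tested acute-phase genes ran from −1.15 for Lcn2 to 0.32 for Hpx between the genotypes, beside 1.36 for Lbp. Saa3 was well above background on 0 of 5 uninjured Myd88KO and 3 of 5 uninjured wild-type arrays, and its difference did not pass (adjusted p = 1.00). With the Myd88KO signals raised as for the bounds above, its Myd88KO mean was 1.35-fold below the wild-type mean.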

How the data were processed

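Whole-trachea RNA from 20 mice was labelled with a single dye and hybridized to oligonucleotide arrays, 1 array per mouse. The authors deposited for each array the Feature Extraction (9.5.1.1) scanner output and a value table. The values used were the intensity of each spot after background subtraction and spatial detrending by that software, per the file headers. No scaling between arrays had been applied. The deposited table holds the same intensity (ratio 0.995 to 1.00) and was an alternative. Columns of samples outside the study numbered 0.

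Control spots and outlier-marked spots (1960) were left out, spots of a probe averaged, and log2 intensity expressed relative to each array's 75th percentile. Probes well above background on at least 10 of 20 arrays were tested with limma 3.58.1 in R 4.3.3 in a single fit of all arrays, with Benjamini-Hochberg adjustment over 26063 probes within each contrast, and called under 0.01, the methods' threshold. The fit was first tested on simulated data with known changes. Probe names came from a RefSeq table (GRCm38.p6, names only), through accessions for 23082 probes, current symbols for 6582 and former symbols for 3073, whereas 8437 stayed under the array's own name.

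The members, gene lists and marker lists were chosen with earlier results of these data known, so their counts are not independent evidence. Lbp was fitted with all other probes, and its p-values are not given because the study had listed it on these contrasts. Named list genes were Tlr4, Myd88, Bpi, Pltp, Ly86 and Cd180 and, per list, up to 4 called genes with the largest differences in each direction. The brightest probe stands for a list gene, and a gene counts as called if any of its probes was.

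Per the file headers, arrays with the same replicate number shared a slide (5 slides, all 4 groups on each), and slides were scanned on 2 days. The number therefore pairs arrays by slide. Deviations from the group means correlated at a median of 0.242 between arrays of a slide (−0.262 to 0.476, 30 pairs) and −0.080 between slides (120 pairs). Alternatives were other normalizations, filters, blocks, weights and tests, and leaving out each array in turn.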

Additional observations from a re-analysis of the deposited data

Results flagged for a closer look

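Lbp, Cd14 and Ly96 showed 0 arrays far from their group in 12 groups checked. Of 80 groups of 5 checked, which include 17 named list genes, 3 held such an array, and chance alone gives about 1 in 20. Ccl2 read 0.35 on uninjured wild-type replicate 1, while the other 4 arrays of that group lay between −0.66 and −0.61. The same array had the highest neutrophil sum of the uninjured arrays, 33.3. Ccl3 read 1.79 on injured wild-type replicate 5, the array with the highest Cd14 level, against at most −0.099 on the other 4. Cd180 read −5.25 on injured Myd88KO replicate 5, against −4.03 to −3.55 on the rest of its group.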

How the results depend on the processing

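In 32 alternatives for each state, the Lbp difference between genotypes was 1.25 to 1.49 without injury and 1.16 to 1.54 after it. These alternatives reuse the values on which Lbp was chosen, so the unchanged direction is no separate support. With the slide as a replicate block the Lbp difference after injury stays at 1.29 by construction, since each slide holds 1 array of every group. The block changed no call of Cd14 or Ly96. The slide and the replicate number are the same block. Cd14 and Ly96 passed in 0 of 316 alternative values. Their sign changed 4 times, all near 0: the Cd14 difference of injury responses was 0.019 with array weights, the Cd14 response in Myd88KO tracheas ranged from −0.016 to 0.33 and the Ly96 response in wild-type from −0.014 (also −0.011) to 0.26 without single replicates. Counts depended more on the settings, and the cause was not tested. Of list genes, 16 were called after wild-type injury, but 12 with the replicate block, 8 with probes well above background on all 20 arrays, 7 by the one-way test and 9 to 19 without single replicates. After Myd88KO injury, 9 were called with array weights against 0, and 0 to 4 without single replicates. Between injured genotypes, 3 became 0 with the replicate block, the 2 groups alone and the one-way test, 1 without a filter or with array weights, and 0 to 4 without single replicates. Of all probes, 1372 were called after wild-type injury, 2106 with the scan day as a block, 2599 with array weights and 665 to 1843 without single replicates. After Myd88KO injury, 98 became 56 with median scaling, 60 without a filter, 361 with the scan day as a block, 1904 with array weights, 0 in the 2 groups alone and in the one-way test, and 6 to 1075 without single replicates (1075 without injured Myd88KO replicate 5). Between uninjured genotypes, 100 became 63 with probes well above background on all arrays, 176 with array weights and 46 by the one-way test. Between injured genotypes, 99 became 63, 38 in the 2 groups alone and 21 by the one-way test. For the difference of injury responses, 0 became 1 with the replicate block, 2 with the scan day as a block, 3 with array weights and 0 to 3 without single replicates. Signal over background did not limit the 3 genes, which were well above background on all 20 arrays, whereas Bpi, Ticam2, Il10, Nos2, Ifnb1 and Apcs were not well above background on any array.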
